A study of Mus musculus with 6 samples.

Results

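Immediate early genes are switched on within minutes of a stimulus, without new protein synthesis, and the 9 members scored here are Fos, Fosb, Jun, Junb, Egr1, Egr2, Egr3, Npas4 and Nr4a1. They were chosen by name from the gene tables of the series. Arc, the tenth symbol looked for, was in none of the 4 tables and was left out, so 9 of the 18778 genes of the tables are described. The series compares mouse neural stem cells (NSCs) with the neurons made from them. Both came from embryonic stem cells of the C57BL/6 strain and were at passages 25 to 30. The NSCs (day 0, RedStar negative) were grown in Euromed-N medium with the growth factors FGF2 and EGF. The neurons (day 11) were differentiated for 4 days with FGF2 and B27 and for 7 more days in N2B27, and were then sorted for RedStar, a red reporter under the Tau (Mapt) promoter, so a sorted cell is one in which that promoter was active. Chromatin of each was precipitated with antibodies to H3K4me3 and H3K27me3 and sequenced beside an input. Total histone H3 and IgG were precipitated too but not sequenced. The labels name no stimulus given to the cells, and RNA was not analysed here.

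In neurons these genes are induced by synaptic activity and calcium entry, and in dividing cells by growth factors. Signals reach them through the factors ELK and SRF, of which SRF binds at CArG boxes, and through CREB, which binds at cAMP response elements (CREs). Their protein products are mostly transcription factors that change the expression of later genes. FOS and JUN family proteins pair to form the AP-1 complex, EGR proteins are zinc finger factors, NPAS4 is a neuronal factor that responds to calcium, and NR4A1 is an orphan nuclear receptor. Promoters of immediate early genes are known to carry H3K4me3, a histone mark of active or poised promoters, before a stimulus arrives. H3K27me3 is the product of Polycomb repressive complex 2 and goes with silent genes. 

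The promoters below show what lies under the H3K4me3 peaks of Fos and Nr4a1, under H3K4me3 at Egr2 (and in NSCs under H3K27me3 too), and at the Npas4 start where no peak was listed. They are RefSeq sequences (GRCm38.p6), 250 bases before to 50 bases after a RefSeq start, 5′ to 3′ on the gene's strand. Windows were found for 7 of the 9 members (Jun, Fosb, Junb, Egr2, Fos, Nr4a1 and Npas4), and Egr2 has 5 of them. Capitals mark the CRE core TGACG on either strand, the CArG box, the EGR site GCGNGGGCG on either strand and the TATA box TATAAA on the gene's strand. The windows are chr12:85473640-85473939 (plus strand) for Fos, chr15:101266596-101266895 (plus) for Nr4a1, chr10:67537619-67537918 (plus), the third of its windows, for Egr2 and chr19:4989922-4990221 (minus) for Npas4.
Fos: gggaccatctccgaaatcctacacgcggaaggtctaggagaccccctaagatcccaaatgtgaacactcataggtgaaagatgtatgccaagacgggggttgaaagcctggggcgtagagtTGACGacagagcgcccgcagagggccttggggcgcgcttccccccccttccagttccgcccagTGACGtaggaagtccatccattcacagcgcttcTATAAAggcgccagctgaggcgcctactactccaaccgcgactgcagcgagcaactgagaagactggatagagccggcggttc
Nr4a1: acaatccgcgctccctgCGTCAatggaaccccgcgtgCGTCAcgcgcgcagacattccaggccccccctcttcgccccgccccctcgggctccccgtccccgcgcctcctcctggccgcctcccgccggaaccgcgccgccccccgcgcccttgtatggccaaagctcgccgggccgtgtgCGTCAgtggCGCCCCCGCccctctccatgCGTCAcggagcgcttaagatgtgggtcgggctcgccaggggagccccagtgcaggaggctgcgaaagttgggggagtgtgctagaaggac
Egr2: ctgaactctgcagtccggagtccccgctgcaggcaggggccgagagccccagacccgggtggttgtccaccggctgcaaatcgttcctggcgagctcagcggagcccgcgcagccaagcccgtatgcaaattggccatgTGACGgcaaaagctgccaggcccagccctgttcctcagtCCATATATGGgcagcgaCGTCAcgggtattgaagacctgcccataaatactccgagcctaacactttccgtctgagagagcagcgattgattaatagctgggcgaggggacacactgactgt
Npas4: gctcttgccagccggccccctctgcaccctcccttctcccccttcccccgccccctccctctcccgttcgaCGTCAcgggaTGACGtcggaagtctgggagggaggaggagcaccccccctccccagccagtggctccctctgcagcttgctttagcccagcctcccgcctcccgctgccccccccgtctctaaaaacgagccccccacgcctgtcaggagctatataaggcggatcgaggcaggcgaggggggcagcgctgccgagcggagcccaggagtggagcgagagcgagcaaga

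The CRE core was found in at least 1 window of 6 of the 7 members with a promoter sequence, all but Jun. Counted by window, it was in 8 of the members' 11 windows. These 8 include 3 overlapping windows of Egr2. The core was in 20.8% of the 32841 RefSeq promoter windows of this length. The Fos promoter has it 66 and 129 bases before the start. In the Npas4 window it lies 179 and 169 bases before the start, on opposite strands. Nr4a1 has 4 copies. The full CRE, TGACGTCA, which contains the core on each strand, was in none of the members' windows and in 1.79% of all. CArG boxes were found in 4 of the 5 Egr2 windows and in no other member's window. Of these windows 3 overlap and hold the same box, so there are 2 distinct boxes at Egr2. A CArG box was in 1.63% of all windows. The AP-1 site TGANTCA was in none (7.81% of all), the EGR site in those of Fosb and Nr4a1 (5.55%), and TATAAA in those of Fos and Junb (8.32%). GC content ranged from 58.7% to 72.3% over the first window of each member, with a median of 68.3% against 52.7% for all windows. The ratio of observed to expected CpG dinucleotides had a median of 0.735, against 0.384 for all windows. The CRE, its core and the EGR site contain CpG, and their shares over all windows were not matched for CpG content. These matches are a description of letters and do not show that a factor was bound. The windows reach only 250 bases before a start, so a CArG box or other site farther out would have been missed. For Egr1 and Egr3 there was no window to search.

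Each antibody was sequenced from 1 library of each cell type, so no difference given here has a replicate check and no p-value is given. In these bulk samples fewer cells with a mark and less of it per cell cannot be told apart. The H3K4me3 peaks listed for neurons held 983266 immunoprecipitated reads, against 3623654 for NSCs. In 397 peaks with the same bounds in both lists neurons had 0.399 times the reads of NSCs, where the input had 0.775 times. The H3K27me3 lists held 3272324 reads in NSCs and 3161819 in neurons. By H3K4me3, NSC markers were marked at 9 of 11 scored genes in NSCs and 10 in neurons, neuron markers at 5 and 7 of 10, and astrocyte markers at 5 and 4 of 7. Against their label, the NSC markers Sox1 and Pax6 were marked in neurons and not in NSCs. The neuron markers Stmn2, Snap25 and Elavl3 were marked in neither cell type. Oligodendrocyte markers were marked at 2 and 3 of 4, microglial ones at 0 of 2 in each, endothelial ones at 1 and 0 of 3, and embryonic stem cell ones at 1 of 2 in each. Input reads were even on the members' chromosomes, at 0.958 to 1.01 times the median autosome in NSCs and 0.93 to 1.03 times in neurons.

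Every member had H3K4me3 at its deposited start site in NSCs, and 8 of 9 had it in neurons. The Npas4 calls are those of a deposited start shared with B3gnt1. With Npas4 at its RefSeq start the counts were 8 of 9 in NSCs and 7 of 9 in neurons. A gene counts as marked where a peak of the deposited list lies within 1000 bp of its start site, and by this rule 70.4% of all genes in the tables were marked in NSCs and 61.7% in neurons. Egr3 was the member without a neuronal peak, and 13.6% of genes marked in NSCs were without one. No member could gain the mark, a change seen at 2.81% of genes unmarked in NSCs. With the gene and 15 kb on each side counted, all 9 held some H3K4me3 in both cell types, against 83.8% of genes in NSCs and 75.6% in neurons. H3K27me3 marked Egr2 in both cell types and no other member, against 19.2% of all genes in NSCs and 17.9% in neurons. No member lost or gained it, where 25.3% of the genes with H3K27me3 in NSCs lost it and 4.4% of the others gained it. Thus 7 of the 9, Npas4 among them by its deposited start, had H3K4me3 without H3K27me3 in both cell types. Of all genes 54.9% had this pattern. By the deposited start sites Egr2 alone had all 4 calls, against 3.15%. The gene tables pair each gene with 1 peak, which is often a farther one. By that peak alone, 5 members had H3K4me3 in NSCs and 4 in neurons, against 58.5% and 51.6% of genes, and Egr3 was again the loss (18.2%). None had H3K27me3 (7.74% and 5.09%) or both marks (2.32% and 0.831%). The universe of genes leans towards those near peaks, since the tables list only genes paired with one.

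**Figure D1:**
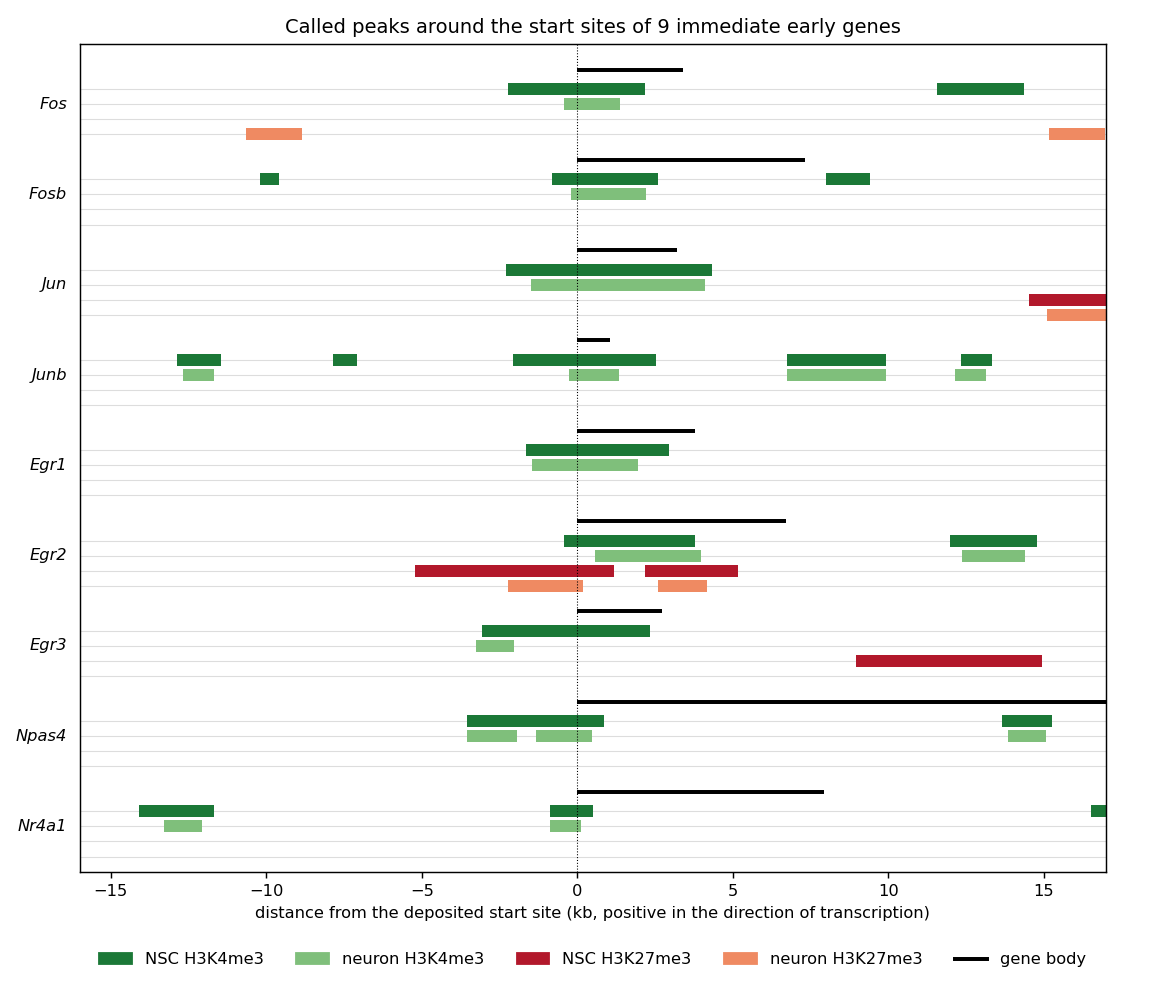
Called peaks of the 4 libraries around each member, with the distance from the deposited start site in kb on the horizontal axis and 1 line per library below the gene body (black). NSC H3K4me3 (dark green) lies at all 9 deposited start sites, that of Npas4 being shared with B3gnt1. Neuron H3K4me3 (light green) is missing over the Egr3 start, and H3K27me3 (reds) lies at a start site only for Egr2. The drawing ends 17 kb past the start, so part of the 54300 bp Npas4 model and peaks beyond it are not shown.

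Of the AP-1 genes, Jun, the main partner of FOS proteins (chr4:94715725-94718913 on mm9, minus strand), had the widest peak of all members in both cell types. Its H3K4me3 peak held 665 reads over 68 input reads in NSCs, across 6600 bp, and 281 over 59 in neurons, across 5600 bp. The intervals for these counts, 615 to 718 and 249 to 316 (exact Poisson, 95%), cover counting error only. The NSC peak was wider than 98.1% of the start-site peaks of all marked genes, and the neuron peak wider than 98.8%. This peak also held the start sites of 2 genes without a symbol, 688 and 3852 bp from that of Jun, so its reads cannot be given to Jun alone. Its neuron over NSC ratio of reads was 0.423, with a counting interval of 0.366 to 0.487, and 88.5% of genes marked in both cell types had a lower one.

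Fos, the founding member of its family (chr12:86814840-86818223, plus strand), had 347 H3K4me3 reads over 44 input reads in NSCs and 84 over 21 in neurons. Its peak narrowed from 4400 to 1800 bp. In NSCs it ran from 2240 bp before the start site to 2159 bp after it, over the promoter printed above, and in neurons from 440 bp before to 1359 bp after, so more was missing on the upstream side. The ratio of reads was 0.242 (0.188 to 0.308). A second NSC peak lay downstream of the gene, 11560 bp from the start site, with 222 reads over 35 across 2800 bp and a fold of 6.50 over input by the authors' caller. No gene of the tables starts there, and neurons had no H3K4me3 peak overlapping it. Enhancers that respond to activity are known on both sides of Fos, but no enhancer mark was measured in these libraries. Neurons had small H3K27me3 peaks on either side, 8841 bp upstream (33 reads over 11) and 15160 bp downstream (35 over 12). The nearest NSC H3K27me3 peak was 232760 bp from the Fos start site.

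Fosb, whose long-lived splice form is known to build up with repeated activity (chr7:19888070-19895394, minus strand), had 254 reads over 38 in NSCs and 73 over 15 in neurons, in peaks of 3400 and 2400 bp. Its ratio was 0.287 (0.218 to 0.374). The region also held 2 weak NSC peaks away from any start site in the tables, 9606 bp upstream with 30 reads over 9 and 7995 bp downstream with 53 over 24. Neurons had neither of them. No H3K27me3 peak lay within 15 kb of Fosb in either cell type.

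Junb, a partner of FOS that can damp AP-1 activity (chr8:87501294-87502328, minus strand), had the peak that narrowed most among the members marked in both. It measured 4600 bp in NSCs with 197 reads over 53, and 1600 bp in neurons with 49 over 10. The NSC peak was wide but sparse, at 42.8 reads per kb, the lowest density of the 9. The authors' fold over input was 3.81 in NSCs and 4.87 in neurons, so Junb was the only member whose fold was higher in neurons. The ratio of reads was 0.249 (0.178 to 0.342). Close by, the shared promoter of Prdx2, of a peroxiredoxin, and Rnaseh2a, of a ribonuclease H subunit, had peaks of the same 3200 bp in both cell types, with 299 and 133 reads. Junb had no H3K27me3 within 15 kb. The deposited Junb model is 1035 bp long, against 1840 bp in RefSeq. Measured from the 3′ end, the RefSeq start falls at -805 bp from the deposited one. That place lay inside the NSC H3K4me3 peak but 534 bp outside the neuronal one, still within the limit of 1000 bp.

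**Figure D2:**
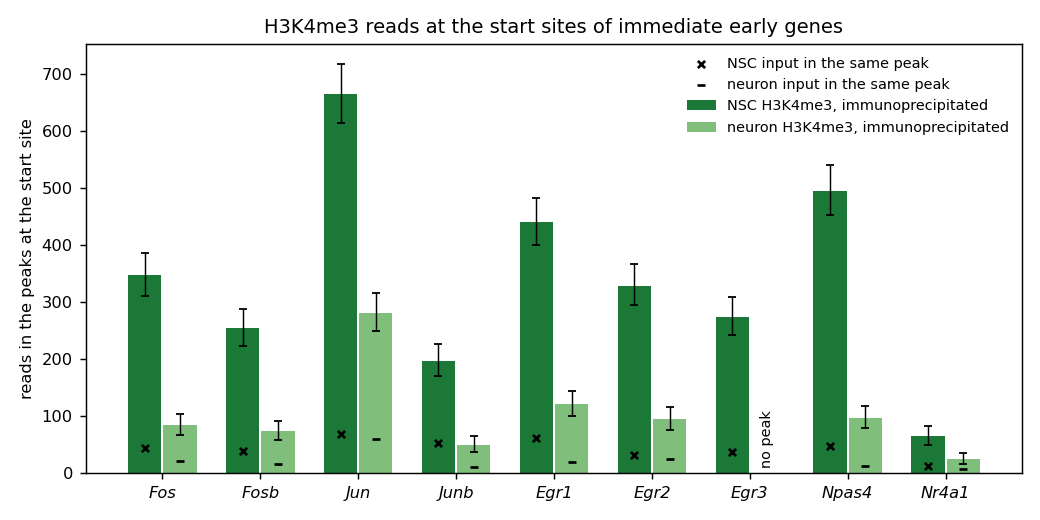
H3K4me3 reads in the peaks within 1000 bp of each member's start site, in NSCs (dark green) and neurons (light green), with exact Poisson 95% intervals that cover counting error. Black marks give input reads in the same peaks. NSC bars run from 64 (Nr4a1) to 665 (Jun) reads, neuron bars from 24 to 281, and Egr3 has no neuron peak. The Npas4 bars are those of the start of the deposited model, which is shared with B3gnt1.

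The EGR genes fell into 3 different states. Egr1, of the early growth response factor most used as an activity marker (chr18:35020861-35024638, plus strand), kept a broad peak without H3K27me3. It had 440 reads over 61 in NSCs across 4600 bp and 121 over 19 in neurons across 3400 bp, and the neuronal peak was wider than 91.2% of neuronal start-site peaks. Its ratio was 0.275 (0.223 to 0.337). No H3K27me3 peak lay within 708662 bp of its start site in NSCs or within 880339 bp in neurons, the largest distances of the 9 members.

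Egr2, which is known for its role in hindbrain patterning and Schwann cell myelination as well as in the response to activity, carried both marks in both cell types (chr10:66998223-67004936, plus strand). Genes with both marks made up 8.53% of the tables in NSCs and 4.59% in neurons. H3K4me3 ran from 423 bp before the start site to 3776 bp after it in NSCs, with 329 reads over 32. In neurons it began 577 bp after the start site and ended 3976 bp after it, with 94 reads over 25. The ratio was 0.286 (0.225 to 0.36). H3K27me3 came in 2 blocks in each cell type. The first reached from 5223 bp before to 1176 bp after the start in NSCs (135 reads over 54), and from 2223 bp before to 176 bp after it in neurons (53 over 19). The second, inside the gene, ran from 2177 to 5176 bp in NSCs (66 over 19) and from 2577 to 4176 bp in neurons (51 over 11).

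Both H3K27me3 blocks of Egr2 were thus shorter in neurons, and the bases they covered in the gene and 15 kb around it dropped from 9400 to 4000. Over all H3K27me3 peaks at gene starts the median width was also lower in neurons, 4600 bp against 7600 bp in NSCs. The marks shared 3200 bp in NSCs and 1400 bp in neurons, which does not show that they sat on the same nucleosomes. RefSeq places 4 further Egr2 starts inside the gene. Measured from the 3′ end of the gene, since the builds differ, the promoter printed above would start 2394 bp past the deposited start site. That place lay inside H3K4me3 in both cell types, inside the second H3K27me3 block in NSCs, and 183 bp outside the nearest H3K27me3 block in neurons. The longest RefSeq span of Egr2 would start at -1006 bp from the deposited start, inside H3K27me3 in both cell types. The nearest H3K4me3 peak lay 583 bp from there in NSCs and 1583 bp in neurons. With that start and the limit of 1000 bp, Egr2 would have no H3K4me3 call in neurons. The outermost of the RefSeq windows and the deposited start differ by 24 bp on this measure, so the distances are approximate.

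Egr3, which acts with EGR1 downstream of neuronal activity (chr14:70477252-70479964, plus strand), was the member whose start site lost its H3K4me3 peak. In NSCs the peak spanned 5400 bp, from 3052 bp before to 2347 bp after the start site, with 274 reads over 37 input reads, and it was wider than 96.4% of NSC start-site peaks. In neurons a peak of 1200 bp with 27 reads over 8 remained at its upstream end, 2053 bp from the start site, and the gene body had none. Neuronal peaks covered 18.5% of the NSC peak, against 34.8% to 84.8% at the other members, and the ratio of reads in overlapping peaks was 0.0985 (0.0638 to 0.147), the lowest of the 9. The call depends on distance, since a limit of 5000 bp would count Egr3 as marked in neurons. Peaks were also missing in neurons at 2 of 18 housekeeping genes marked in NSCs, Eef1a1 and Rpl13a (named after their values were seen), and the part of the lower read counts of the neuron library in the Egr3 result was not tested. NSCs had a H3K27me3 domain of 6000 bp beginning 8948 bp downstream of the Egr3 start, with 107 reads over 54. The nearest neuronal H3K27me3 peak was 22453 bp away.

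Npas4, a basic helix-loop-helix factor largely confined to neurons in other work, has to be read with care. Its deposited model (chr19:4984355-5038654, minus strand) is 54300 bp long, and its start site lies 172 bp from that of B3gnt1, a glycosyltransferase gene on the other strand. The H3K4me3 there, 496 reads over 48 in NSCs and 97 over 13 in neurons, cannot be told apart from that of B3gnt1. The NSC peak of 4400 bp also reached the start of Brms1, 2739 bp away, and in neurons it was split into 2 peaks of 1800 and 1600 bp with 171 reads together. The ratio was 0.196 (0.156 to 0.244) for the piece at the start site and 0.345 (0.288 to 0.411) for both.

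RefSeq gives Npas4 a promoter 5618 bp from its 3′ end on GRCm38.p6, the one printed above. At that distance from the 3′ end of the deposited model, 48681 bp past the deposited start, no peak of either mark lay within 1000 bp. The nearest H3K4me3 peak was 11227 bp away in NSCs and 27174 bp in neurons. For H3K27me3 the nearest were 21227 bp and 8174 bp away. The longest RefSeq model of Npas4 would start 35213 bp past the deposited start. There an NSC H3K4me3 peak lay 1042 bp away, just outside the limit of 1000 bp, and the nearest neuronal one 20159 bp away. This place was found after the peaks around the member had been seen, and its distance was carried between builds, so a shift of some bases is possible. With the promoter printed above as its start, Npas4 had neither mark in either cell type, and the members with H3K4me3 number 8 of 9 in NSCs and 7 of 9 in neurons.

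Nr4a1, also known as Nur77, was weakly marked at its deposited start (chr15:101097284-101105223, plus strand). It had 64 H3K4me3 reads over 13 in NSCs across 1400 bp and 24 over 6 in neurons across 1000 bp, in each cell type the fewest of the members marked there. Of all marked genes, 6.91% had fewer reads in NSCs and 2.85% in neurons. The ratio was 0.375 (0.224 to 0.608). A stronger peak lay upstream, its near edge 11685 bp from the start in NSCs with 166 reads over 21, and 12085 bp in neurons with 40 over 6. The longest RefSeq model of Nr4a1 is 20894 bp long, against 7940 bp in the tables. Measured from the 3′ end, its start falls at -12954 bp from the deposited one, inside that upstream peak in both cell types. No H3K27me3 was listed within 73516 bp of the start site in NSCs or 90716 bp in neurons.

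Across the members, the NSC H3K4me3 peaks were broad. Their median width was 4400 bp (1400 to 6600), against 2400 bp for all 13218 marked genes, and 91.9% of marked genes had a narrower peak than this median. They were broad rather than dense. The median density was 78.3 reads per kb against 97.3 for all marked genes, and the median fold over input was 7.58 against 9.41. Breadth was not particular to the members, since the median NSC width at NSC markers was 5600 bp. In the 4 lists of related genes described below it was 2700 to 3400 bp. The wide peaks of Jun and Npas4 also held start sites of other genes. In neurons the 8 marked members had a median width of 2100 bp (1000 to 5600) against 1800 bp for all, and 64.7% of marked genes had a narrower peak than that.

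**Figure D3:**
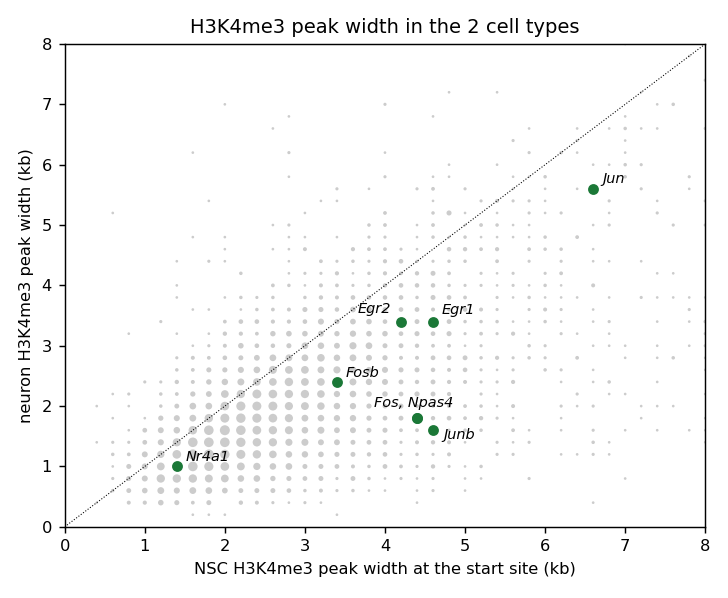
Width of the H3K4me3 peaks at the start site in NSCs (horizontal, kb) and neurons (vertical, kb), for 8 members (green) and all 11424 genes marked in both cell types (grey, larger dots for more genes). The dotted line marks equal widths. All 8 members lie below it, with Fos and Npas4 at the same point (4.4 and 1.8 kb), and peaks wider than 8 kb are not drawn.

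All 8 members marked in both had a narrower peak in neurons, as did 81.1% of all genes marked in both. The median ratio of widths was 0.71 (0.348 to 0.848) for the members and 0.75 for all such genes. Neuron reads were under 0.5 of NSC reads at 8 of 8 members and at 94.6% of all such genes. The median ratio of reads was 0.28 (0.196 to 0.423), against 0.308 over all 11424 genes. Without Npas4 it was 0.286. The members' drop in reads was therefore close to that of the whole library. Jun stood above the median of all genes by more than its counting interval. Npas4 stood below it with the neuronal piece at the start site, but not with both pieces, and so did Fos, whose interval ended at 0.308041 against a median of 0.308286. Egr1, Egr2, Fosb, Junb and Nr4a1 had intervals that held it. These positions depend on the measure, since the peaks were called separately and differ in width. By fold over input Jun had a ratio of 0.472, below the median of all genes (0.484). By reads per kb Fos (0.592) and Npas4 (0.478) lay above the median of all genes (0.419).

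**Figure D4:**
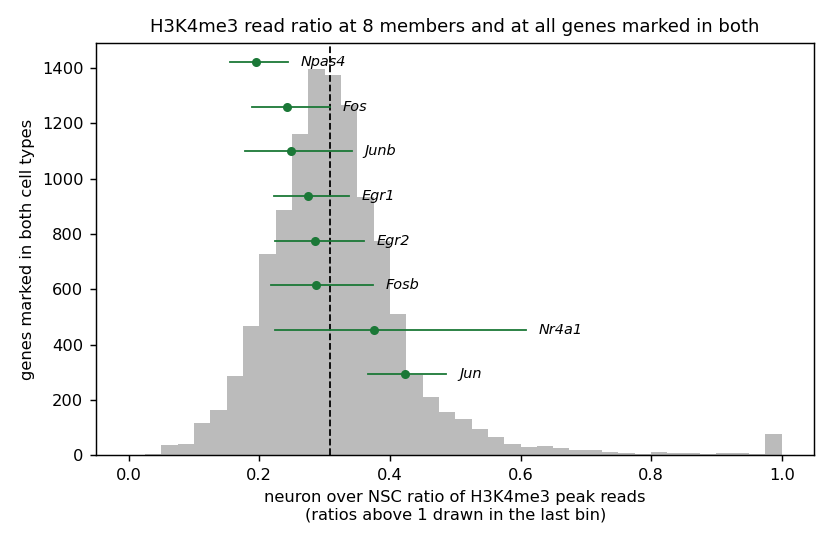
Neuron over NSC ratio of H3K4me3 reads at the start site (horizontal axis) for 8 members (green points with 95% counting intervals, in order of the ratio) over a histogram of all 11424 genes marked in both cell types (grey, genes per bin on the vertical axis). The dashed line is the median of all genes, 0.308, and only the intervals of Npas4, Fos and Jun leave it out.

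The upstream edge lay farther downstream in neurons than in NSCs at 7 of 8 members, against 72.7% of all genes marked in both. It had not moved at Nr4a1. At Egr2 it passed the start site, from 423 bp before it in NSCs to 577 bp after it in neurons. The median shift was 900 bp (0 to 2200) for the members and 200 bp for all genes. The 2200 bp is that of Npas4, whose split-off neuronal piece ends at the NSC edge. With both pieces its shift was 0, the count 6 of 8 and the members' median 700 bp (0 to 1800). The downstream edge lay farther upstream in neurons at 7 of 8, all but Egr2, against 66.7%, with a median shift of 400 bp against 200 bp. At Egr1 the downstream edge moved more, by 1000 bp against 200 bp upstream, and at Nr4a1 it was the one that moved, by 400 bp. The members' NSC peaks reached farther upstream at the outset, by a median of 2071 bp against 831 bp for all marked genes, and the part of that in the shift was not tested. The neuron over NSC ratio of the authors' fold over input had a median of 0.703 for the members (0.355 at Egr2 to 1.28 at Junb) and 0.484 for all genes. Egr2 and Jun lay below the median of all genes. Input reads in these peaks had a median ratio of 0.428 for the members and 0.618 for all genes, and the part of this in the fold was not tested. For reads per kb the median ratio was 0.488 (0.353 to 0.715) against 0.419.

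Away from start sites of genes in the tables, the windows from 15 kb before to 15 kb after each member held 7 NSC H3K4me3 peaks, at Fos, Fosb, Junb, Npas4 and Nr4a1. Neuronal peaks overlapped 2 of them, the upstream peak of Nr4a1 and a peak 12329 bp downstream of Junb with 143 reads over 14 in NSCs and 50 over 14 in neurons. Over the genome, 10.1% of the 19508 NSC peaks of this kind overlapped a neuronal one. Of the 2, the Nr4a1 peak holds the start of that gene's longest RefSeq model, measured from the 3′ end. The 5 peaks of NSCs alone were the downstream peak of Fos, both distal peaks of Fosb, one 7072 bp upstream of Junb (39 reads over 10) and one within the Npas4 model (40 over 14). Of these the Fos peak had by far the most reads.

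H3K27me3 anywhere in these windows was found at 4 of 9 members in each cell type, against 38.9% of all genes in each. In NSCs these were Jun, Egr2, Egr3 and Npas4, and in neurons Fos, Jun, Egr2 and Npas4. At Jun a weak domain began 14514 bp downstream in NSCs (64 reads over 53) and 15114 bp downstream in neurons (74 over 33). Within the Npas4 model NSCs had a domain of 2600 bp (53 over 19), and neurons had one of 1800 bp beyond its 3′ end (40 over 12). Where both cell types had some, at Jun, Egr2 and Npas4, the neuron over NSC ratio of covered bases was 0.837, 0.426 and 0.692, against a median of 0.786 over 6122 genes.

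Related genes were described from 4 lists. Of the other AP-1 and ATF genes, 12 of 13 had H3K4me3 in NSCs and 11 in neurons. Fosl1, of the FOS-like factor FRA-1, had lost it, with 63 reads over 25 in NSCs, and in neurons no peak lay closer than 7653 bp. Batf3 and Atf3, of a partner of JUN and a stress-response factor, carried both marks in both cell types. Batf3 had 115 H3K27me3 reads over 77 input reads in NSCs and 88 over 33 in neurons. Atf3 had 370 over 240 and 104 over 78. Both lie on chromosome 1, where input reads stood at 1.46 and 1.48 times the median autosome.

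All 18 scored genes among other immediate early transcription factors had H3K4me3 in both cell types. Egr4, the last of the EGR family, carried H3K27me3 as well in both, like Egr2. Its H3K4me3 dropped from 133 reads over 21 across 3000 bp to 20 over 3 across 600 bp. Its H3K27me3 domain measured 17800 bp in NSCs, with 476 reads over 173, and 2600 bp in neurons, with 66 over 15. The median width of all H3K27me3 peaks at gene starts was also lower in neurons, as given for Egr2. Among the EGR genes, then, Egr2 and Egr4 had both marks, and Egr1 and Egr3 had no H3K27me3 at the start. Nfil3, of a basic leucine zipper repressor, had H3K27me3 in NSCs alone (337 over 161, with the nearest neuronal peak 2158 bp away), and Ier5, on chromosome 1, in neurons alone (83 over 57).

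Activity-induced effector and late response genes had H3K4me3 at 22 of 25 scored genes in NSCs and 18 in neurons. The genes that lost it were 5 of 22, against 13.6% of all genes. They were Bdnf, of a neurotrophin, Vgf, of a neuropeptide precursor, Crh, of corticotropin-releasing hormone, Inhba, of an activin subunit, and Cdkn1a, of the cell cycle inhibitor p21. Cdkn1a had the most reads in NSCs, 568 over 77 across 6400 bp, and its nearest neuronal peak was 2476 bp away. Vgf had 257 over 40, with a neuronal peak 1435 bp away, while Bdnf, Inhba and Crh had 33, 34 and 37 reads. Their nearest neuronal H3K4me3 peaks were 1743 bp away at Bdnf, 14516 bp at Inhba and 66130 bp at Crh. Bdnf, Vgf and Crh carried H3K27me3 in both cell types, as did Sst, of somatostatin. Scg2, of a granin, carried it in NSCs alone (166 over 153, on chromosome 1), and Gadd45b, of a stress and demethylation factor, in neurons alone (82 over 30). Ptgs2, of cyclooxygenase 2, had H3K4me3 in neurons alone (45 over 25) and lies on chromosome 1.

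Of the upstream regulators, 28 of 33 had H3K4me3 in NSCs and 29 in neurons, and none had lost it. Camk2a, of a calcium-dependent kinase, was the gain, with 90 reads over 17 in neurons, and it carried H3K27me3 in NSCs alone (98 over 86). No other regulator carried H3K27me3. Over the 86 genes of the 4 lists the median ratio of reads, for 71 marked in both cell types, was 0.29. Of the 65 genes in these lists with H3K4me3 in both cell types and H3K27me3 in neither, Mafg, Atf7 and Mef2a were nearest to the members in H3K4me3 reads, with 337 and 89, 327 and 95, and 337 and 101 reads in NSCs and neurons. The members' medians were 338 and 88.9. This likeness is over 2 libraries.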

How the data were processed

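Chromatin fixed in 1% formaldehyde and sheared to about 300 bp was immunoprecipitated, per the labels' protocols, from NSCs and sorted neurons. There were 4 immunoprecipitated libraries and 2 inputs. FastQC, Bowtie, SAMtools and SICER on mm9 are named in the submitters' processing notes, while their versions and settings were not given in the sources used here. The authors deposited, for each library, a peak list with read counts (immunoprecipitated and input), a p-value, a false discovery rate (FDR) and a fold ratio over input per peak. A second table, per the file headers, pairs Ensembl genes with 1 peak each and repeats these values with the score column minus 10 times log10 p, which was not used. Positions and distances are other deposited columns, on mm9. Listed peaks have an FDR under 0.001 and bounds in steps of 200 bp. The inputs have no file used here, so library totals are unknown.

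A start site is the start (plus strand) or end (minus strand) of a gene in the tables. Peaks within 1000 bp were summed. A lost mark is one called in NSCs alone. Coverage was taken over the gene and 15 kb on each side. Intervals are exact (Poisson for a count, Clopper-Pearson for a ratio), at 95%, and cover counting error only, since reads without molecular identifiers are not independent molecules. Percentiles compare a member with all marked genes. The members and lists were chosen with earlier results of these data known. Named genes were all members and, of the related lists, every gene that lost or gained a mark or carried H3K27me3. From those with the members' most common calls, the 3 nearest to the members' median log2 H3K4me3 reads were also named, as were genes starting at a member's own peak. Of the NSC and neuron markers, those without H3K4me3 in the cell type they mark were named. Prdx2, Rnaseh2a, Eef1a1 and Rpl13a fall outside this rule and were chosen after their values were seen. Of the lists' symbols, 2 were matched through an older one. The scoring was tested on simulated peaks, and 0 of 2891 planted calls were wrong. Planted peaks lay over the start site or well beyond the limit of 1000 bp, so distances close to the limit were not probed. In the NSC H3K4me3 list itself, 0 of 1000 recomputed distances were wrong. Alternatives were other distances, stricter peaks, equal numbers of peaks, the tables' own peak and other treatments of Npas4. Calculations used matplotlib 3.10.9, scipy 1.17.1, Python 3.11.15, numpy 2.4.6 and pandas 2.3.3.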

Additional observations from a re-analysis of the deposited data

How the results depend on the processing

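No paired analysis was possible because each group has 1 library, and for the same reason no replicate could be left out. The tables' own peaks gave fewer marks. With the peak that the gene table names, 5 members had H3K4me3 in NSCs and 4 in neurons, and 0 had H3K27me3 or both marks in either. For Fos, Egr1, Npas4 and Nr4a1 the tables name an H3K4me3 peak 12085 to 25739 bp away although a listed one lies at the start site, and Egr3 was lost under this rule too. At an FDR under 1e-20, 9 members kept H3K4me3 in NSCs but 6 in neurons, so 3 counted as lost (Egr3, Junb and Nr4a1), 0 had H3K27me3 or both marks in neurons, and 1 (Egr2) had lost H3K27me3. With the strongest 50% of each list by fold, 5 had H3K4me3 in neurons, 4 had lost it, 1 had gained it and 0 had both marks in neurons. Within 500 bp, 2 had lost H3K4me3 (Egr2 and Egr3) and 0 had both marks in neurons. Within 5000 bp, and where absence meant no peak within 10 kb, 0 had lost H3K4me3. Equal numbers of peaks changed none of these counts. The median neuron over NSC ratio of H3K4me3 reads was 0.488 per kb of peak and 0.703 by the authors' fold, in place of 0.28. The ratio of widths was 0.618 over the gene and 15 kb around, 0.723 at an FDR under 1e-20, 0.727 within 2000 bp and 0.714 without Npas4, in place of 0.71. For covered H3K27me3 it was 0.425 in the gene body and 0.426 in 15 kb on each side of the start site (Egr2 alone in each) and 0.631 without Npas4, in place of 0.692, and no member had some in both cell types at an FDR under 1e-20. With both neuronal pieces of Npas4 the members' median upstream shift was 700 bp in place of 900. The Npas4 alternatives were chosen after seeing the data and changed no count by more than 1.5 times.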
